A study of Bos grunniens with 6 samples.

Results

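The shared peaks of yak testis are the stretches of RNA that were called as enriched in N6-methyladenosine (m6A) both before and after sexual maturity. They were taken as the juvenile peaks on chromosomes 1 and 2 that overlapped a peak of the mature list by at least 1 bp, so they were chosen by the borders of the peaks in both lists, measured values of the same libraries. This gave 926 of the 1289 juvenile peaks on these chromosomes (71.8%, 95% Wilson interval 69.3 to 74.2%, which covers counting error only). The list held 15116 juvenile peaks on all chromosomes. Peaks were read from the adenosines listed with a score, so a peak without one is not counted. On the mature side, 909 of 1284 peaks (70.8%) had a juvenile partner. The share was alike on chromosome 1, with 442 of 611 juvenile peaks, and on chromosome 2, with 484 of 678.

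Testis parenchyma came from 3 juvenile yaks of 6 months (Y6M), before sexual maturity, and from 3 yaks of 30 months (Y30M), after it. The labels name no allele and no treatment, so age is the labelled difference between the groups. Fragmented poly(A) RNA was immunoprecipitated with an m6A antibody, and an input library without the antibody was made from the same RNA. Peaks were deposited as 1 list per age, so a peak has no value per yak, whereas gene expression was deposited for each of the 6 input libraries as FPKM, which is the number of fragments scaled by transcript length and by the mapped fragments of the library.

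m6A is a methyl mark that a complex around METTL3 and METTL14 writes on adenosines of messenger RNA while it is made, that FTO and ALKBH5 can erase, and that readers such as the YTHDF proteins bind. It is found mostly in long internal exons, around stop codons and in 3′UTRs, and it bears on the splicing, decay and translation of the transcript. In testis the mark is known for its part in the division of spermatogonia, in meiosis and in the storage of transcripts for later use in spermatids.

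The juvenile and mature borders of the shared peaks differed little in most pairs. Overlaps joined the lists in 991 pairs, of which 742 were one-to-one, meaning that neither peak overlapped another peak of the other list. A further 63 juvenile peaks overlapped 2 mature peaks and 1 overlapped 3, while 73 mature peaks overlapped 2 or more juvenile peaks. Of the one-to-one pairs, 128 (17.3%) had the same start and the same end in both lists, 339 kept exactly 1 border, and 275 had both borders moved. The mature peak was longer in 291 pairs, shorter in 304 and of equal length in 147. The median span was 1432.5 bp in the juvenile list and 1258 bp in the mature list, introns included, since a peak can cross several exons.

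The shifts fell on a grid. Of 1484 borders in the one-to-one pairs, 595 were kept and 889 had moved. Among the moved borders, 369 (41.5%) lay 48 to 50 bp apart, 110 (12.4%) lay 97 to 100 bp apart and 54 (6.07%) lay 146 to 150 bp apart, whereas only 2 lay 1 to 47 bp, 5 lay 51 to 96 bp and 3 lay 101 to 145 bp apart. A separate set of 231 borders (26.0%) had moved by more than 1000 bp. Over all 991 pairs the median size of the shift was 50 bp for the start and 50 bp for the end. The borders therefore moved in steps near 50 bp or jumped, and shifts between the steps were rare. The tables give no width of the counting window, so the source of the step was not tested.

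**Figure D1:**
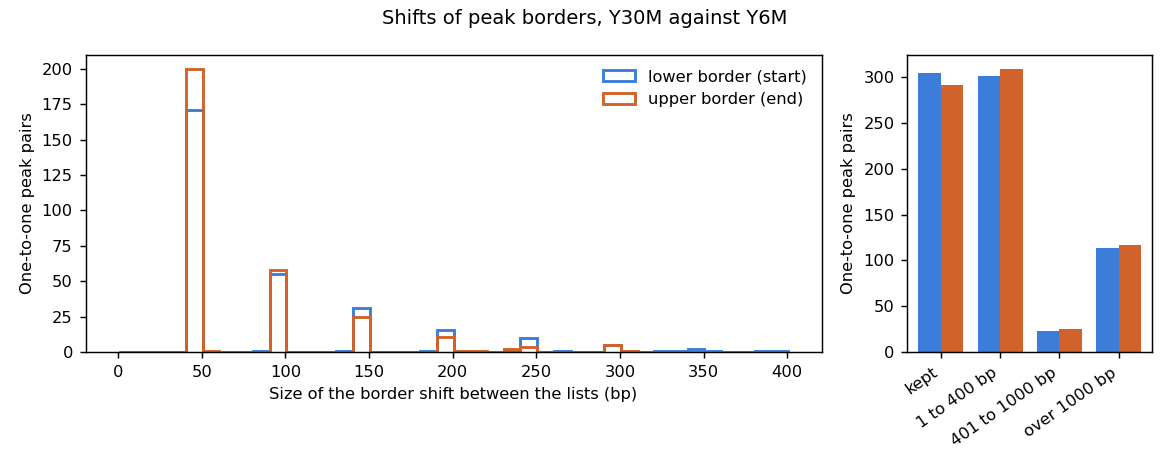
Size of the shift between the juvenile (Y6M) and the mature (Y30M) border in the 742 one-to-one pairs, for the lower border (start, blue) and the upper border (end, orange). The left panel counts pairs by shift in base pairs from 1 to 400 bp, where the counts stand in narrow columns near multiples of 50 bp, and the right panel counts the kept borders and all sizes of shift, with 231 borders of both kinds over 1000 bp.

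The comparison table of the authors, which lists peaks called over both ages with their strand and their exon blocks, gave a single gene strand to 682 one-to-one pairs. The share of borders that had moved by more than 1000 bp was 22.6% in the 396 pairs with several blocks and 5.24% in the 286 pairs with 1 block, and the share of identical pairs was 17.7% and 17.5%. The median juvenile span was 4769 bp with several blocks and 349.5 bp with 1 block, and a peak under 1000 bp has no room for an inward shift of that size, so these shares are a description. Read along the gene, the 5′ border was kept in 38.6% of pairs and the 3′ border in 43.5%. Among the 127 pairs whose 5′ border had moved by more than 1000 bp, it lay farther in for 86 mature peaks and farther out for 41. Among the 82 such 3′ borders, 49 lay farther in and 33 farther out.

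Single peaks show the range of these shifts. All positions are those of LU_Bosgru_v3.0, counted from 1. The longest shift among genes with a name lay in *SAMSN1*, an adaptor protein of lymphocytes on the minus strand, whose juvenile peak chr1:14552946-14638061 spanned 85116 bp and whose mature peak chr1:14560909-14565975 spanned 5067 bp. In *RFTN2*, which encodes a lipid raft protein, the juvenile peak chr2:55557799-55604374 began 46427 bp before the mature peak chr2:55604226-55604374, and both ended at the same base. The juvenile peak of *CCDC50* was likewise longer, by 39792 bp at its upper end. The longer peak was the mature one in *KPNA4*, an importin that carries proteins into the nucleus, where the end moved by 32348 bp, and in *NAB1*, a co-repressor of EGR transcription factors, where it moved by 27720 bp. The other extreme was *KLHL24*, an adaptor of a ubiquitin ligase, with the smallest shift other than 0 of any named gene, 48 bp at the end of chr1:90850092-90855914. *GART*, an enzyme of purine synthesis, and *NSUN3*, which methylates mitochondrial tRNA, had shifts of 49 bp each. Expression of these 8 genes did not pass the test of the ages given below, with Benjamini-Hochberg adjusted p-values of limma between 0.178 and 1. The replicate number was also tried as a block, although the labels name no pairing of yaks across the ages. With this block *SAMSN1* passed in the direction of lower expression in Y30M (log2 fold change -0.79, limma, adjusted p = 0.0210). *KPNA4* passed with it in the direction of higher expression (0.76, limma, adjusted p = 0.0305). *RFTN2* passed without Y30M replicate 1 (log2 fold change 0.67) and *GART* without Y30M replicate 2 (0.59).

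At the edge of the rule, the smallest overlaps were 1, 50 and 50 bp. The juvenile peaks nearest to a mature peak without touching it were 48, 49 and 49 bp away. Only 34 of the 363 unshared juvenile peaks lay within 1000 bp of a mature peak, and their median distance to one was 37067 bp.

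The lists also hold a part of the adenosines inside each peak, with a score between 0 and 1 for the prediction that the base is methylated. In the shared juvenile peaks with known exon blocks, 18.4 adenosines were scored per kb of block. How they were picked is not given, and all counts and shares of adenosines here are of the scored ones. A score of 0.528 or more is a predicted site, 0.6 or more a site of high confidence and 0.672 or more one of very high confidence. Which tool gave the score is not given in the sources used here. The juvenile peaks that were shared held 155533 distinct scored adenosines and their mature partners 136700. A total of 115368 adenosines were scored in both, which is 74.2% of the juvenile and 84.4% of the mature ones. Of these, 23315 were predicted sites in both lists and 2628 were of very high confidence in both. Predicted sites made up 20.3% of the juvenile adenosines scored in both lists and 20.3% of those scored in the juvenile list alone, whereas the adenosines scored in the mature list alone had 17.8%. Where the peaks overlapped, almost every adenosine of one list was found in the other, with 115551 of 115565 juvenile adenosines scored again in the mature peak.

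The score of an adenosine was the same at both ages in 97.5% of the 115551 pairs of scores. It differed in 2875 pairs, higher in the mature list in 1420 and lower in 1455, by a median of 0.017 and by at most 0.181. In peaks with identical borders 0 of 15199 pairs differed. All differences lay within 126 bp of a border that had moved. Of the adenosines 0 to 24 bp from such a border 99.2% had unequal scores, at 100 to 124 bp it was 95.1%, at 125 to 149 bp it was 3.57%, and beyond 150 bp it was 0 of 96919. A new score changed the call in 176 pairs, of which 92 were predicted in the mature list only and 84 in the juvenile list only. The largest difference was at the adenosine chr1:120230124, near a start that had moved by 100 bp, with 0.425 in the juvenile list and 0.244 in the mature list. The score thus moved with the place of the border. It carries no separate reading of methylation at each age, so an equal score is no measurement of equal methylation.

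**Figure D2:**
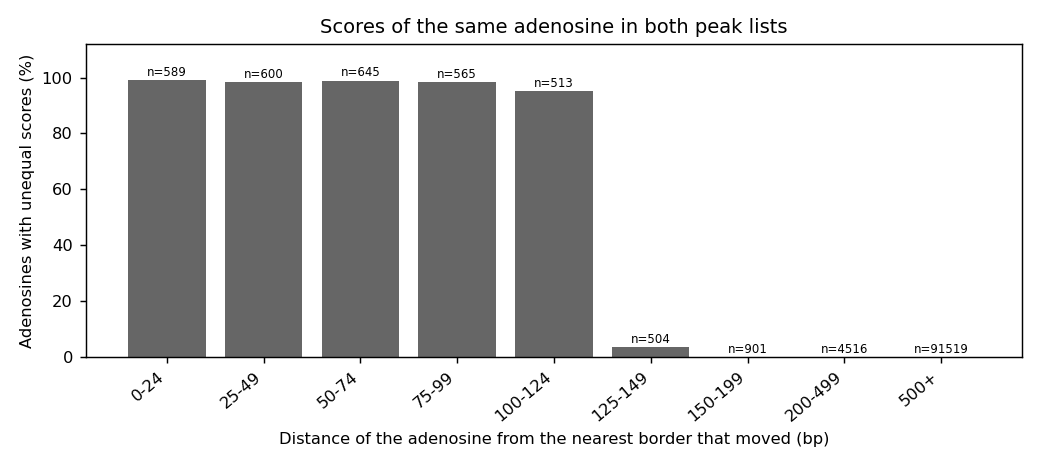
Share of adenosines scored in both lists whose 2 scores differ (vertical axis, percent), by distance in base pairs from the nearest border that moved between the lists, with the number of pairs of scores above each bar. Nearly all scores differ up to 124 bp from a moved border, and none of 96919 differs beyond 150 bp.

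Over their whole span, shared peaks and peaks called at 1 age differed little in the share of predicted sites. It was 20.3% of 155614 scored adenosines in shared juvenile peaks and 19.1% of 43073 in unshared ones, and 19.2% of 50969 in unshared mature peaks. Peaks with at least 1 site of very high confidence were 51.5% of the shared and 41.3% of the unshared juvenile peaks. The mature list gave 50.6% and 41.1%. Length differed as well, since the shared mature peaks had a median span of 1309 bp and the unshared ones 450 bp, against 1233.5 and 1353 bp in the juvenile list. In peaks under 500 bp the predicted share was 40.5% in shared and 36.2% in unshared juvenile peaks. The authors' fold enrichment of immunoprecipitated over input reads, computed for both ages together, had a median of 2.64 (quartiles 2.10 and 3.26) in the 834 rows that overlapped a shared peak. It was 1.81 in the 206 rows on a juvenile peak only and 1.95 in the 185 on a mature peak only. The enrichment FDR was at most 0.05 in 76.4%, 59.7% and 45.9% of these rows. These values share their reads with the peak lists and are given as a description.

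Predicted sites were more frequent in exons than in the stretches between them for genes on the plus strand. The difference was smaller on the minus strand. In the 250 shared juvenile peaks with a row of the same borders, exon blocks made up 5.60% of the span. Predicted sites were 38.5% of 2031 scored adenosines in the blocks and 19.0% of 39247 between them. The share in blocks differed by the strand of the gene. On the plus strand it was 46.7% (95% Wilson interval 44.1 to 49.4%, 615 of 1316 adenosines), and on the minus strand 23.2% (20.3 to 26.4%, 166 of 715). Scored adenosines numbered 22.6 and 13.7 per kb of block, and sites of very high confidence were 11.3% and 1.40% of them. Between the blocks the order was the other way round, with 17.3% on the plus and 20.4% (19.8 to 20.9%) on the minus strand. On the minus strand the intervals in and between the blocks thus overlapped. The mature list gave 46.4% and 26.0% in the blocks of 310 shared peaks. In the juvenile blocks, 11.7% of plus-strand peaks and 37.3% of minus-strand peaks held no predicted site. The lists give no strand for an adenosine and the sources do not say which strand was scored, so counts of sites on genes of opposite strand are not comparable here, and the cause of the split was not tested.

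**Figure D3:**
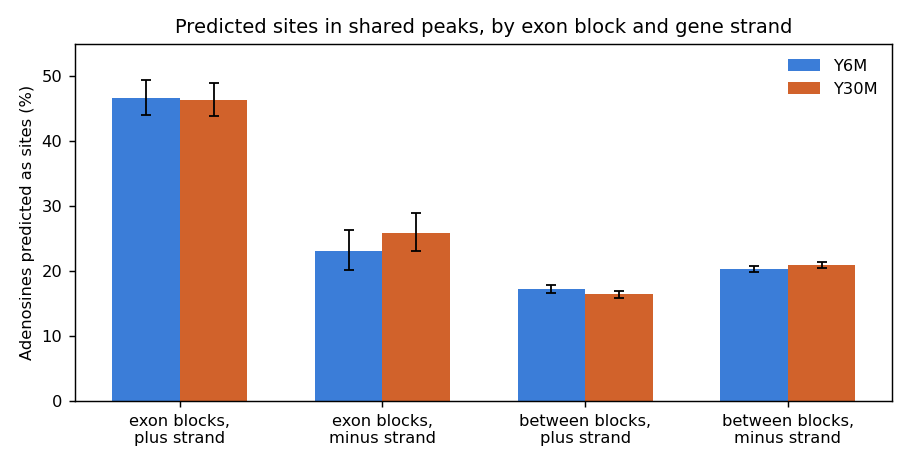
Share of scored adenosines predicted as sites (vertical axis, percent) in the exon blocks of shared peaks and between the blocks, for genes on the plus and on the minus strand, in the juvenile (Y6M, blue) and the mature list (Y30M, orange). Bars are shares over the adenosines of all peaks, with 95% Wilson intervals that cover counting error only. Plus-strand blocks stand at 46.7% and 46.4%, and minus-strand blocks at 23.2% and 26.0%.

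High scores in identical peaks were found in *ARID1A*, *EVA1C*, *YTHDF2* and *ITPRID2*. *ARID1A*, a subunit of the SWI/SNF complex on the plus strand of chromosome 2, had 4 shared peaks, and the identical one at chr2:11157316-11160994 held 32 predicted sites among 80 adenosines, with a highest score of 0.848. A second identical peak of this gene at chr2:11156175-11156673 had 6 of 9 and a highest score of 0.781. *EVA1C* had 9 of 10 scored adenosines predicted in chr1:36073836-36074232, up to 0.779, which the authors' annotation places in the 3′UTR. *YTHDF2*, which binds m6A and promotes the decay of the transcript, had 14 of 20 in chr2:13072434-13073167, up to 0.764. *ITPRID2*, with 5 shared peaks, had 22 of 160 in chr2:134047121-134054696. The most sites predicted in both lists were counted in peaks that run over long introns on the minus strand, with 430 in *GRB14*, an adaptor of the insulin receptor, 176 in *TIAM1*, an activator of Rac1, 136 in *TRIM62*, a ubiquitin ligase, 131 in *ATG3*, an enzyme of autophagy, and 119 in *EURL*.

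The shared peaks reached 544 genes through overlapping rows of the comparison table, among 730 genes with a row on these chromosomes. No row was found for 74 shared peaks, 841 reached 1 gene and 11 reached 2. Names could be given to 208 of the 544 genes. A single shared peak was found in 341 genes, 2 in 133, 3 in 43, and 4 or more in 27. *CRYBG3* had the most with 8 (picked for its count after the values were seen), followed by *SON*, a cofactor of splicing, with 7 and *MBD5*, a chromatin protein, with 6.

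Without regard to expression level, genes of shared peaks changed about as often as all genes. At matched level they changed less often in each range from 1 to 100 FPKM, and more often at 100 FPKM and more. These differences in share were not tested. Expression was tested with limma on log2(FPKM + 1) over 19477 genes, and differentially expressed genes (DEGs) are those that differed 1.5-fold or more with p up to 0.05 before adjustment. Of 543 genes of shared peaks with FPKM values, 271 (49.9%) were DEGs, beside 46.3% of all genes tested. They divided into 137 that were higher (25.2%, all genes 27.3%) and 134 that were lower (24.7%, all genes 19.0%). An adjusted p-value of at most 0.05 was reached by 239 of them (44.0%, all genes 42.9%), and libraries of the ages did not overlap in 300 (55.2%, all genes 54.1%). The median log2 fold change was -0.06, beside 0.04 over all genes. The balance of directions moved with the scaling, at 173 higher and 114 lower after rescaling FPKM to equal sums and 129 and 167 with median-of-ratios factors, and was 155 and 103 without Y6M replicate 3. The genes differed more in level, since 98.9% of them had a mean of at least 1 FPKM against 71.4% of all genes, 94.9% of the genes with any row on chromosomes 1 and 2 and 91.4% of those reached by unshared juvenile peaks only, and their median was between 7.53 and 12.4 FPKM in the 6 libraries against 3.29 to 5.56 FPKM. At matched level the share of DEGs was 50.9% of 53 members and 57.9% of 2176 genes at 1 to 3 FPKM, 42.6% of 183 members and 55.9% of 3860 genes at 3 to 10 FPKM, 49.5% of 192 and 57.9% of 4235 at 10 to 30 FPKM, 59.8% of 87 and 67.2% of 2658 at 30 to 100 FPKM, and 81.8% of 22 and 74.6% of 983 at 100 FPKM and more. Below 1 FPKM, 1 of 6 members and 11.2% of 5565 genes were DEGs, which lowers the share over all genes. Fewer cells of a type and less RNA per cell cannot be told apart in such bulk tissue.

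Genes whose peaks were called at 1 age only leaned toward that age. Of 70 genes reached by an unshared juvenile peak and by no other peak, 11 (15.7%) were higher and 26 (37.1%) lower in Y30M, beside 27.3% and 19.0% of all genes. Of 74 genes reached in the same way by an unshared mature peak, 39 (52.7%) were higher and 9 (12.2%) lower, and their median in the juvenile libraries was 0.509 to 1.09 FPKM. The 116 genes of identical peaks gave 31 (26.7%) and 26 (22.4%). Peaks were called against the same input libraries that gave FPKM, and a peak needs reads of its transcript. These sets were therefore not picked independently of expression, and the lean is a description. The part of the expression level in the calling of a peak was not tested.

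Whether a shared peak was longer or shorter in Y30M also went with the expression of its gene, although the median ratio of lengths stayed near 1. In 166 one-to-one pairs on 120 genes that were higher in Y30M, the mature peak was the longer one in 46.4% and the shorter one in 30.1%. In 167 pairs on 121 genes that were lower in Y30M, it was longer in 29.9% and shorter in 51.5%. The 348 pairs on 251 genes that did not pass lay between them, with 39.1% and 41.4%. A mature peak no more than 50% as long as the juvenile one was found in 18.0% of pairs on lower genes and in 7.23% of pairs on higher genes. Identical pairs were 19.9% of the pairs on higher genes and 16.2% on lower genes. The median ratio of mature to juvenile length was 1.0 on higher genes, 0.997 on lower genes and 1.0 on genes that did not pass. Leaving out each library in turn, the mature peak was longer in 42.7 to 46.5% of pairs on higher genes and in 27.4 to 29.8% on lower genes, and among genes with a mean of 3 to 30 FPKM it was longer in 48.5% and 31.9%. Several pairs share a gene and the lists have no replicates, so this is a description without a test, and it was chosen after the data were seen.

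**Figure D4:**
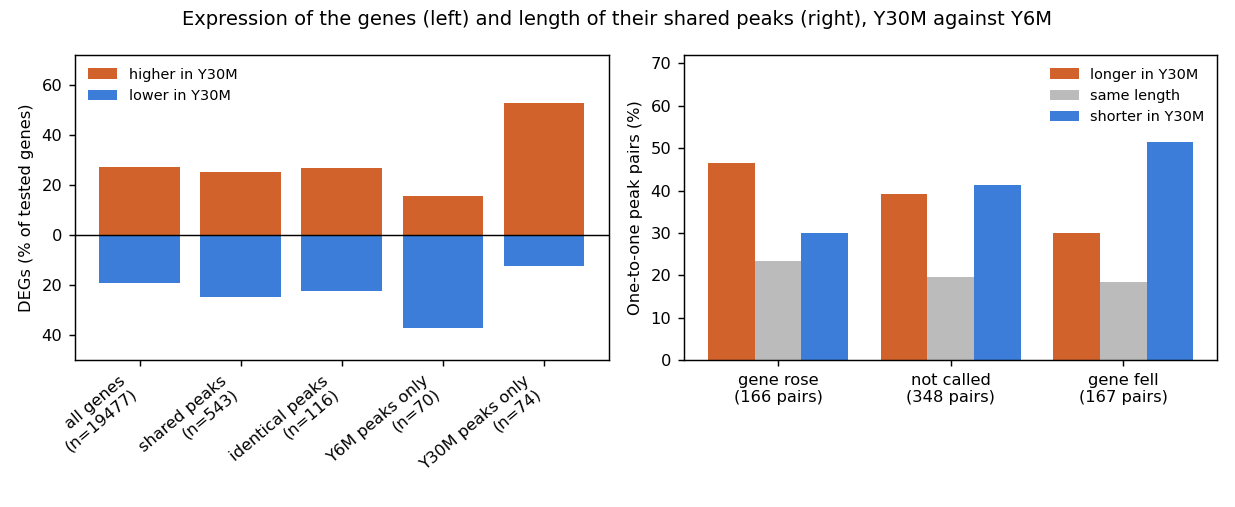
Left, DEGs as a percentage of the tested genes for all genes, genes of shared peaks, genes of identical shared peaks and genes reached only by unshared peaks of 1 age, with those higher in Y30M drawn upward (orange) and those lower drawn downward (blue). Right, one-to-one shared pairs in percent whose Y30M peak is longer (orange), of the same length (grey) or shorter (blue), by the expression of the gene. Genes of shared peaks stand at 25.2% and 24.7%, and the longer peak is more often the one of the age with the higher expression.

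*KIF5C*, the heavy chain of a motor that carries cargo along microtubules (ENSBGRG00000005336), had the largest log2 fold change among the named genes of shared peaks on the log2(FPKM + 1) scale. Its level was 6.71, 6.27 and 6.98 FPKM in the juvenile libraries and 68.6, 149 and 114 FPKM in the mature ones, which is a log2 fold change of 3.80 with an SE of 0.29 (limma, adjusted p = 0.000387). With a pseudocount of 0.1 its value was 3.96, below 6.01 for *RTP1* and 4.13 for *GRHL3*. Every mature library stood above every juvenile one, which the choice of the named rises required. The juvenile peak chr2:98105343-98164165 was met by 2 mature peaks, chr2:98116785-98127457 and chr2:98135494-98164165. The next peak at chr2:98167244-98168507 had the same borders at both ages, with 9 of 22 scored adenosines predicted. The paper lists this peak as hypomethylated in mature testis, and equal borders give no reading of the level of the mark. *TTLL4*, an enzyme that adds glutamate chains to tubulin and other proteins (ENSBGRG00000000831), kept both of its exon peaks base for base, chr2:32962235-32962834 and chr2:32963559-32964058. Its expression was 12.1, 13.4 and 16.2 FPKM in the juvenile and 113, 131 and 105 FPKM in the mature libraries (log2 fold change 2.98 with an SE of 0.15, limma, adjusted p = 0.000131). Identical borders thus stood beside an 8.37-fold higher mean.

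*NECTIN3*, an adhesion molecule of spermatids at their junction with Sertoli cells (ENSBGRG00000000168), held the adenosine with the highest score in the genes named for a rise. Its juvenile peaks chr1:60480760-60492309 and chr1:60495213-60549445 were met by a single mature peak from the first start to the last end, and the adenosine chr1:60481082 had 0.871 in both lists. Expression was 5.99, 4.90 and 12.2 FPKM against 36.4, 46.7 and 84.4 FPKM (log2 fold change 2.71 with an SE of 0.44, limma, adjusted p = 0.00513), and replicate 3 was the highest of each age. *PLCL2*, an inactive relative of the phospholipases C (ENSBGRG00000000215), had 4 one-to-one peaks. The one that the annotation places in the 3′UTR, chr1:168502738-168542235, was extended by 49 bp and kept all 114 predicted sites. Its libraries lay at 8.47, 8.81 and 10.3 FPKM and at 50.0, 75.3 and 61.0 FPKM (log2 fold change 2.61, limma, adjusted p = 0.000284). *TIAM1* (ENSBGRG00000000112) went from 1.68, 2.34 and 1.33 FPKM to 22.0, 14.8 and 16.4 FPKM (log2 fold change 2.75, limma, adjusted p = 0.000372), with a peak of 19968 bp that moved by 50 and 99 bp.

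*RTP1*, a chaperone of odorant receptors (ENSBGRG00000001507), was listed at 0.0756, 0 and 0 FPKM in Y6M and at 5.54, 10.3 and 7.86 FPKM in Y30M (log2 fold change 3.08, limma, adjusted p = 0.000293). Its 2 juvenile peaks, chr1:87244115-87244413 and chr1:87244119-87244414, cover almost the same bases, and both overlap 2 mature peaks. *GRHL3*, a transcription factor of epithelia (ENSBGRG00000006200), had 0.221, 0.445 and 0.267 FPKM and then 8.42, 6.28 and 6.22 FPKM (log2 fold change 2.60, limma, adjusted p = 0.000180). Its juvenile peak of 150 bp, chr2:8720219-8720368, lay inside a mature peak of 398 bp, with 4 and 10 predicted sites. *DNAJC28*, a protein with a J domain (ENSBGRG00000000137), had 2.57, 3.18 and 5.34 FPKM and 25.1, 25.4 and 79.3 FPKM (log2 fold change 3.06, limma, adjusted p = 0.00594). Its juvenile peak chr1:37145265-37146209 was met by 2 shorter mature peaks, and 0 of its 15 adenosines were predicted as sites.

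**Figure D5:**
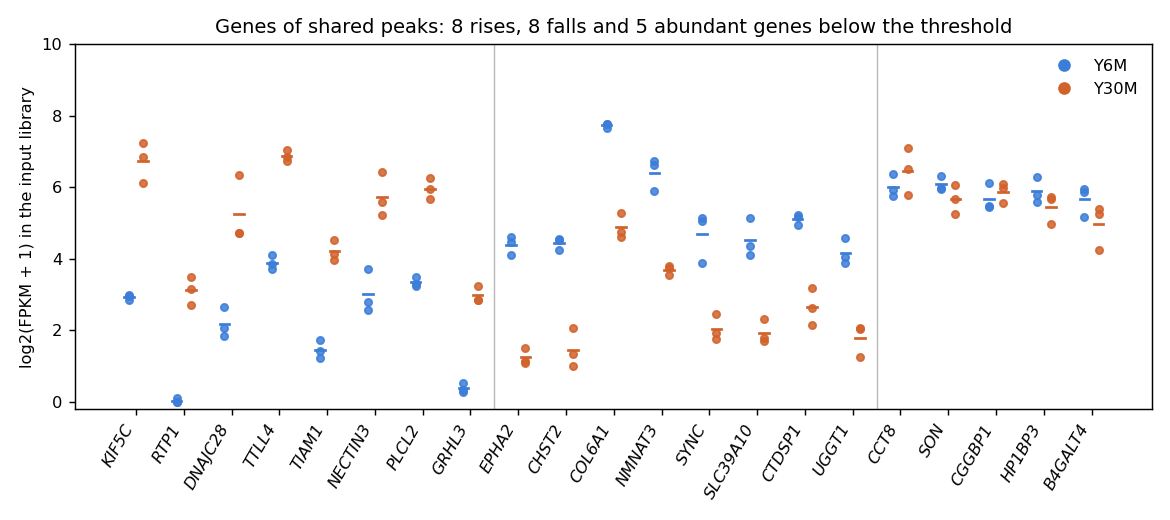
Expression as log2(FPKM + 1) in each input library (points, Y6M blue and Y30M orange, 3 libraries each) with the mean of each age (bar), for the 8 named genes of shared peaks with the largest rises on this scale, the 8 with the largest falls and the 5 most abundant ones that did not pass the test. The first 16 genes were chosen among those whose ages do not overlap, and the ages overlap in the last 5, *CCT8* to *B4GALT4*.

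The juvenile libraries of *EPHA2*, a receptor for ephrins (ENSBGRG00000002216), had 23.3, 21.1 and 16.3 FPKM and the mature ones 1.82, 1.15 and 1.21 FPKM, which is a log2 fold change of -3.15 with an SE of 0.18 (limma, adjusted p = 0.000183). This was the lowest value of the named genes with all 6 libraries, but not without Y6M replicate 1, where it was -3.04 beside -3.08 for *CHST2*. The juvenile peak chr2:213810-221572 held 100 predicted sites among 161 adenosines, and the mature peak chr2:213860-214008 inside it was 149 bp long and held 1 of 2. Its other peak, chr2:186358-187002, was only 50 bp shorter in Y30M. *COL6A1*, a chain of collagen VI (ENSBGRG00000000813), was at 217, 199 and 216 FPKM and then at 37.6, 25.8 and 23.6 FPKM (log2 fold change -2.85, limma, adjusted p = 0.000278). Its juvenile peaks chr1:159062930-159063179 and chr1:159063279-159063428 were met by 1 mature peak that covered both. *CHST2*, which sulfates sugar chains (ENSBGRG00000000218), fell from 18.0, 22.0 and 22.6 FPKM to 3.16, 1.02 and 1.51 FPKM (log2 fold change -2.98, limma, adjusted p = 0.000867), and its juvenile peak chr1:137060949-137062628 was met by 2 mature peaks.

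Among the other 5 genes named for a fall, a mature peak was longer than its juvenile partner in *NMNAT3* and shorter in *SLC39A10*. Both genes had 2 shared peaks, of which 1 each is described. *NMNAT3*, an enzyme of NAD synthesis in mitochondria (ENSBGRG00000001428), had 106, 96.7 and 58.0 FPKM and 12.9, 10.6 and 12.4 FPKM (log2 fold change -2.72) and a mature peak of 546 bp against 200 bp at chr1:141111094-141111293. *SLC39A10*, a zinc importer (ENSBGRG00000001456), had 19.4, 16.1 and 34.5 FPKM and 2.42, 2.26 and 3.94 FPKM (log2 fold change -2.60), and its peak chr2:57482318-57483836 shortened from 1519 to 198 bp. The remaining 3 were *SYNC*, an intermediate filament protein, with a log2 fold change of -2.64, *CTDSP1*, a phosphatase of RNA polymerase II, with -2.45, and *UGGT1*, which checks the folding of glycoproteins, with -2.38. The adjusted p-values of these 5 falls lay between 0.000722 and 0.00406 (limma).

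The most abundant genes below the threshold had overlapping libraries. *CCT8*, a subunit of a chaperonin, had 53.0, 59.5 and 82.4 FPKM and 90.7, 53.6 and 136 FPKM, with an identical peak at chr1:31453288-31457917. *SON* had 62.4, 61.3 and 78.4 FPKM and 65.7, 37.2 and 50.4 FPKM. Of its 7 juvenile peaks, a pair at chr1:37202326-37202476 and chr1:37202575-37202874 was covered by 1 mature peak, as was a second pair, and the peak chr1:37201279-37202044 was identical. *HP1BP3*, a chromatin protein, *CGGBP1*, which binds CGG repeats, and *B4GALT4*, a galactosyltransferase, had means of 59.3, 51.4 and 50.9 FPKM in Y6M and of 44.1, 58.5 and 32.2 FPKM in Y30M. The adjusted p-values of the 5 genes lay between 0.214 and 0.580 (limma). *CCT8* passed without Y30M replicate 2 (log2 fold change 0.79), *SON* without Y30M replicate 1 (-0.62) and *B4GALT4* with median-of-ratios factors per library (-0.81).

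All 4 genes of connective tissue and vessels reached by a shared peak fell, where the list has 26 genes of which 8 had a name in the series, and 19.0% of all genes tested were lower in Y30M. *COL6A1* is described above. *COL6A2*, which forms collagen VI with it, had 326, 273 and 223 FPKM and then 64.9, 45.2 and 45.7 FPKM (log2 fold change -2.38, limma, adjusted p = 0.000655), with an identical peak at chr1:159212231-159214773. *COL5A2*, a chain of collagen V, fell by 2.20 on the log2 scale and *ADAMTS1*, a protease of the matrix, by 1.44. The median over the 4 was -2.29, beside 0.04 over all genes. Of 38 markers of testicular cell types 7 could be matched by name, and none of them was at 0. The summed level of the 6 somatic ones, *SOX9*, *INHBA*, *FSHR*, *LHCGR*, *PECAM1* and *CDH5*, was 209 to 311 FPKM in Y6M and 28.6 to 49.3 FPKM in Y30M, while *SYCP3*, of the meiotic chromosome axis, was 1.91 to 5.27 FPKM and 7.18 to 31.4 FPKM. The part of the mix of cells in these results was not tested.

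Of 4 receptors of the immune system reached, 1 rose and 2 fell, where all genes gave 27.3% and 19.0%. *IFNGR2*, a chain of the interferon gamma receptor, had 35.5, 38.5 and 29.4 FPKM and 10.9, 5.09 and 7.62 FPKM (log2 fold change -2.04, limma, adjusted p = 0.00255). Its peak shortened from chr1:37061446-37065571 to the last 199 bp of that span, which held 5 of the 26 juvenile sites. *IFNAR2*, of the receptor for type I interferons, fell by 1.67 on the log2 scale (limma, adjusted p = 0.0112). *CXCR4*, a chemokine receptor, rose from 6.29, 8.21 and 10.2 FPKM to 42.4, 29.2 and 23.2 FPKM (log2 fold change 1.80, limma, adjusted p = 0.00420), while its peak chr2:82861309-82866263 shortened by 4511 bp at the upper end. *IFNAR1* did not pass, with a log2 fold change of -0.99 and an adjusted p of 0.191 (limma), but passed with median-of-ratios factors (-1.11).

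Of 6 signalling receptors reached, 3 were called lower in Y30M, beside 19.0% of all genes, and 3 did not pass. *ROBO1*, a receptor of Slit ligands, had 58.2, 44.3 and 62.0 FPKM and 20.2, 10.1 and 18.2 FPKM (log2 fold change -1.74, limma, adjusted p = 0.00579). Its 3 peaks moved differently, since chr1:10760341-10778605 changed by 50 bp and kept 54 sites, whereas chr1:10746495-10756789 shortened from 10295 to 151 bp. *BMPR2*, a receptor of bone morphogenetic proteins, passed by the unadjusted p-value alone (log2 fold change -0.79, limma, adjusted p = 0.0922), and lost its call when any 1 of the 6 libraries was left out (-0.94 to -0.52) and after rescaling to equal sums (-0.67). *EPHA3*, *EPHA6* and *ACVR2A* had adjusted p-values of 0.927, 0.583 and 0.376 (limma). The median over the 6 was -0.64.

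Among chromatin genes and cofactors, 1 of 4 rose and 1 fell, which is near the shares of all genes (27.3% and 19.0%). *TAF12*, a subunit of the general factor TFIID, had 4.12, 3.99 and 5.10 FPKM and 16.3, 13.0 and 19.5 FPKM (log2 fold change 1.66, limma, adjusted p = 0.00118). Its peak chr2:12962180-12972351 had the same borders at both ages, with 63 predicted sites among 264 scored adenosines. *ARID1A* had 45.4, 44.0 and 48.4 FPKM and 37.0, 26.7 and 23.4 FPKM (log2 fold change -0.67, limma, adjusted p = 0.0340), and was no longer called after rescaling to equal sums (-0.49) or without Y30M replicate 3 (-0.53). *NRIP1*, a co-repressor of nuclear receptors, and *MBD5* did not pass, but *NRIP1* did without Y6M replicate 3 (log2 fold change 0.60). The listed m6A writers and erasers had 0 names in the series and could not be reached. Of 2 m6A readers with a name and a row on these chromosomes, only *YTHDF2* was reached. It had 17.2, 18.8 and 21.4 FPKM and 29.1, 23.2 and 28.3 FPKM, and its log2 fold change of 0.47 was below the threshold of 1.5-fold (limma, adjusted p = 0.0429), which it passed after rescaling to equal sums with 0.65. *ATR*, a kinase of the DNA damage response, was the only named meiosis gene with a row on these chromosomes. It was reached and had a mean of 4.78 FPKM in Y6M and 4.79 FPKM in Y30M. Of the spermatid and sperm list, 2 named genes had a row on these chromosomes and 0 were reached. The spermatogonial list had 0 names in the series, and the named Sertoli and Leydig genes had 0 rows on these chromosomes. Genes of these 3 lists could therefore not be reached, since the lists count named genes only.

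The remaining genes named by the study had short peaks with small shifts or a long one. *BCL6*, a transcriptional repressor, had 3.44, 5.81 and 6.84 FPKM and 13.8, 23.7 and 15.5 FPKM (log2 fold change 1.55, limma, adjusted p = 0.00967), with a peak that shortened from chr1:86544186-86544678 to 346 bp and kept 3 predicted sites. *EURL* rose from 14.4, 14.0 and 28.5 FPKM to 56.1, 93.9 and 117 FPKM (log2 fold change 2.18, limma, adjusted p = 0.00756), and its peak chr1:18279628-18311446 lost 2171 bp at its upper end, which is the 5′ end of a gene on the minus strand. *RBM11*, an RNA-binding protein, had 1.30, 2.13 and 2.21 FPKM and 3.41, 2.43 and 8.75 FPKM. The libraries did not overlap, but the difference did not pass (log2 fold change 0.89, limma, adjusted p = 0.152), which it did without Y30M replicate 2 (1.20), with a pseudocount of 0.1 (1.15) and after rescaling to equal sums (1.12). Its highest score in the 3′UTR peak chr1:14233260-14233507, at the adenosine chr1:14233309, was 0.721 in the juvenile and 0.770 in the mature list.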

How the data were processed

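Fragmented testis RNA of 3 Y6M and 3 Y30M yaks was sequenced after m6A immunoprecipitation and as input. According to the submitters' notes and the methods, the authors trimmed reads with Trimmomatic, aligned them with HISAT2 to LU_Bosgru_v3.0, and called peaks with MeTDiff over the replicates of a group. The deposited site lists hold a part of the adenosines of a peak, each with a score from 0 to 1. They were used for all chromosomes in Y6M and for chromosomes 1 and 2 in Y30M. The deposited comparison table gives a ratio, the fold enrichment over input, with its log10 FDR for both ages together, and its columns of fold change, p-value and FDR between the ages were not used. FPKM per input library was deposited by the authors, without read counts. With Y30M replicate 1 as 1, the depth read from the steps of low FPKM values was 0.911, 1.03 and 0.751 in Y6M replicates 1 to 3 and 1.07 and 1.05 in Y30M replicates 2 and 3. The number of reads behind a peak is unknown.

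Peaks, starts converted to count from 1, were overlapped in Python 3.11.15, and genes were reached through comparison rows that overlap a shared peak by at least 1 bp. Names of 2147 gene IDs and the words exon and UTR were taken from the authors' annotation of the peaks, 6 IDs with 2 different names were left out, and no sequence was available to print. limma 3.58.1 was fitted to log2(FPKM + 1), so changes of low genes are understated, over all genes above 0 in at least 1 library, and was tested on simulated data. Each sample was taken as 1 yak, and p-values measure the spread between these samples. Deviations of the samples with the same replicate number from their group means correlated at 0.209, 0.283 and 0.604, which pairs them by the criterion of more than 0.1 in each pair, but unlike numbers correlated as strongly (0.322 for Y6M replicate 1 with Y30M replicate 2, 0.253 for Y6M replicate 2 with Y30M replicate 1), and the values mainly set replicate 3 of both ages apart from the others.

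Named were, among genes with a name, the 8 largest rises and the 8 largest falls with an adjusted p of at most 0.05 and no overlap between the ages, the 5 most abundant genes that were not DEGs, 5 identical peaks with the highest score, 5 peaks each with the largest and the smallest shift, 5 with the most sites, the genes of the lists and those named by the study. The result of 1 named gene is not reported here. Members, lists and rules were chosen with earlier results of these data known.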

Additional observations from a re-analysis of the deposited data

How the results depend on the processing

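Shared peaks numbered 637 when at least 50% of both peaks had to overlap and 130 when start and end had to be identical. The median shift of the start and of the end was 49 bp in one-to-one pairs and 49 bp with 50% overlap. The share of juvenile adenosines scored in both lists was 73.9% for predicted sites and 89.1% with 50% overlap. Sites of the 2 upper confidence classes were 8.93% of adenosines. The 271 DEGs became 177 of 434 genes with rows at an enrichment FDR of at most 0.05 (40.8%, beside 46.3% of all genes tested). Their number stayed within 1.5 times under every other alternative run. It was 230 to 267 without each library in turn, 287 after rescaling FPKM to the same sum (173 higher and 114 lower) and 296 with a median-of-ratios factor (129 and 167). It was 279 with a pseudocount of 0.1, 292 with a mean FPKM of at least 1, 217 at a fold change of 2 and 232 at an adjusted p of 0.05. The shares of all genes under these settings are not given here, so the counts do not separate the members from the setting. The median over all genes moved from 0.04 to 0.11 with the equal sums. With the replicate block 319 genes were called, 267 of them also without it. Beside *SAMSN1* and *KPNA4*, the block added *ITPRID2* (log2 fold change -0.73) and *GRB14* (-1.24) and changed no other call among the 56 named genes. Of these, 37 kept their call under every alternative. The sign of *CCDC50*, near 0, turned at -0.000186 with the pseudocount of 0.1 and -0.12 with median-of-ratios factors. That of *ATR* turned at 0.14 and that of *EPHA3* at 0.052 with equal sums. Without single libraries *CCDC50* ranged from -0.19 to 0.24, *ATR* from -0.35 to 0.31, *EPHA3* from -0.31 to 0.26 and *KLHL24* from -0.53 to 0.12. The causes of these changes were not tested.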

Other observations

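The strand split of predicted sites was also present outside the shared peaks. In the juvenile peaks of the other chromosomes with a row of the same borders, predicted sites were 48.6% (95% Wilson interval 47.9 to 49.4%) of 16894 scored adenosines in plus-strand exon blocks and 28.0% (27.1 to 29.0%) of 9086 in minus-strand blocks. Between the blocks the shares were 17.1% on the plus and 24.0% on the minus strand. Blocks of plus-strand peaks held no predicted site in 10.5% of 1854 such peaks, and those of minus-strand peaks in 35.8% of 1661.

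A few genes had a shared peak beside a very low level at 1 age. The mean was below 1 FPKM in Y6M for 16 of the 543 genes of shared peaks, of which 12 rose and 0 fell, and in Y30M for 20, of which 0 rose and 14 fell. A low mean at 1 age limits the direction a gene can move in. In 4 genes, among them *EPHA6*, *EVA1C* and *CDA*, an enzyme of pyrimidine salvage, the mean was below 1 FPKM at both ages although both lists held a peak. Among the genes low in Y30M only were *COL6A6*, a further chain of collagen VI, and *IFNAR2*. *CDA* and *COL6A6* were picked after the values were seen.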
